A study of Mus musculus with 21 samples.

Results

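The step from week 2 to week 4 of repeated UV exposure was examined in dorsal skin of hairless mice, with 3 arrays at UV week 4 set against 3 arrays at UV week 2. The 6 arrays were taken by their sample titles from the 21 arrays of a photoaging series, which holds 7 groups of 3. All mice were female Hos:HR-1 animals, an albino hairless strain, delivered at 6 weeks of age, and the mice of the 5 UV groups were exposed 3 times a week to a fluorescent UV lamp. The dose is given in MED, the minimal erythema dose, and 1 MED was 100 mJ/cm2. The UV week 2 mice had reached 2 MED (200 mJ/cm2) and the UV week 4 mice 4 MED (400 mJ/cm2). The remaining groups were UV weeks 1, 6 and 8 and unexposed skin at weeks 1 and 8. Each time point came from different animals, and unexposed skin of weeks 2 and 4 was not measured. Dose, number of exposures and age therefore differ together between the groups and cannot be told apart. The time between the last irradiation and sampling is not given in the sources used here. In bulk skin, fewer cells of a type and less RNA per cell cannot be told apart either.

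Hair follicles pass through growth, regression and rest, and the keratins and keratin-associated proteins of the shaft and its sheath are made by the growing follicle. In hairless strains the follicles degenerate after the early cycles, and remnants stay in the dermis. UV light is known to set off inflammation with acute phase proteins, mast cell activity and immediate early transcription factors, and to alter turnover of the collagenous matrix made by fibroblasts.

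Values are log2 of the deposited probe set intensities, and each gene was represented by the probe set with its highest mean. The test for week 4 against week 2 asked for a 2-fold change with a limma adjusted p no higher than 0.05, and 0 of 40540 probe sets passed (0%). Without the fold limit the count was also 0, and the lowest adjusted p was 0.0801. At an unadjusted p under 0.05, 1278 probe sets were higher at week 4 (3.15% of those tested) and 1122 were lower (2.77%). By size alone, 107 of the 17403 genes lay at least 2-fold lower at week 4 (0.615%) and 14 at least 2-fold higher (0.0804%). Of those 107 genes, 51 belonged to 4 lists of hair follicle genes, 11 to the lists of acute phase and interleukin-1 genes, and 7 to the matrix lists. Those hair lists held 91 of the genes tested (0.523%) and the matrix lists 126 (0.724%). The acute phase list held 20 measured genes and the interleukin-1 list 22. All lists were chosen with earlier results of these data known. The median difference over all genes was 0.01. The values below are therefore descriptions of 3 against 3 arrays. Where a gene named below was called only under another setting, that setting is given.

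The arrays carried the markers of skin. Krt10, a keratin of the suprabasal epidermis, lay between 14.24 and 14.51 on the 6 arrays, and Col3a1, a fibrillar collagen of the dermis, between 14.25 and 14.75. Skeletal muscle genes were also present, and their median difference over 30 genes was -0.09. The muscle genes of highest mean, the myosin gene Myh1 and the troponin gene Tnnc2, had differences of 0.19 and 0.05. Array 334 of week 4 correlated with the week 2 arrays at 0.992 to 0.993, and at 0.992 with both arrays of its own group. Arrays 331 and 333 correlated with the week 2 arrays at 0.985 to 0.989. The log2 ratio of the 3' to the 5' beta-actin probe set, a sign of RNA integrity, was 2.85 ± 0.53 (SD, n = 3) at week 2 and 3.46 ± 0.55 at week 4 (exact two-sided permutation p = 0.3, with 0.1 the smallest that 3 against 3 arrays allow). For Gapdh the ratio was 3.42 ± 0.86 and 4.33 ± 2.20 (exact permutation p = 0.7), and array 333 was highest for both ratios.

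Of the 43 gene lists, the hair lists of sheath and shaft genes had the largest median differences. Of the 9 inner root sheath genes, which encode the layer that moulds the growing shaft, all 9 lay at least 2-fold lower in the mean of week 4. Their median difference was -3.15, beside 0.01 for all genes, of which 48.1% lay below 0. All 9 had an unadjusted p under 0.05, where 3.53% of all genes did in that direction. In 6 of the 9 the arrays of week 4 all lay below those of week 2, which was true of 9.68% of all genes. The genes of the list are made by the same cells, and the list as a whole was not tested.

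The promoters of 3 of these hair genes are shown because the genes of the lists lay low in the same arrays. They run from 250 bases before to 50 after the start site, 5' to 3' on the gene's strand, from RefSeq on GRCm38.p6, with the letters TATAAA in capitals. Krt25 is at chr11:99322902-99323201 (minus strand), Krt71 at chr15:101743048-101743347 (minus strand) and Krtap11-1 at chr16:89571134-89571433 (minus strand).
Krt25: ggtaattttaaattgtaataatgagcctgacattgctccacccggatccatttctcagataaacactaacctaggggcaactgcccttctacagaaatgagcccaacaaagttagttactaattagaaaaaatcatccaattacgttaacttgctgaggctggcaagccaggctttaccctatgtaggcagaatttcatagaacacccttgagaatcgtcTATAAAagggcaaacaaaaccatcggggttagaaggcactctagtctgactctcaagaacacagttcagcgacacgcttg
Krt71: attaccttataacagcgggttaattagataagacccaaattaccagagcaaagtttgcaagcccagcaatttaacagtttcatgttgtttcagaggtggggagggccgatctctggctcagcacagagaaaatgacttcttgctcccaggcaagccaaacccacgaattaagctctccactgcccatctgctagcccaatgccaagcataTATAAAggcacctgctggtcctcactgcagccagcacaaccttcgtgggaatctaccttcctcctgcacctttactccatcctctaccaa
Krtap11-1: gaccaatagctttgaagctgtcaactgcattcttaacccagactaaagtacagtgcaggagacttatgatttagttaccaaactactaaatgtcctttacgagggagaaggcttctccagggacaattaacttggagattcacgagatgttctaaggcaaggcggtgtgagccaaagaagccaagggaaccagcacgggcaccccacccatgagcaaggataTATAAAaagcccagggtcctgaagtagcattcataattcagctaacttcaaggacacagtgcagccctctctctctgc
The letters begin at -30 from the start site in Krt25, at -40 in Krt71 and at -28 in Krtap11-1, with 1 match in each. TATAAA, searched on both strands, was found for 41 of the 52 shaft keratin, keratin-associated protein and inner root sheath genes with a promoter in the table (78.8%). All 59 measured genes of those lists were looked up. Over all 27018 genes with a promoter the share was 15.7%, and among 20 immediate early genes it was 15%. The letters describe the promoters and say nothing of which factor acted there.

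Krt25, a type I keratin of the sheath, lay at 12.47, 10.83 and 12.34 at week 2 and at 6.68, 5.03 and 10.72 at week 4. The third week 4 array, 334, stood just under the lowest week 2 array, and the other 2 lay far below. The difference of the means was -4.40 (SE 1.14, limma adjusted p = 0.338). Tchh, which encodes trichohyalin, the cross-linked protein of the sheath, lay at 12.40, 11.13 and 12.10 and then at 7.25, 6.42 and 11.65. Here array 334 fell within the week 2 range. Krt73, a type II sheath keratin, had the smallest adjusted p of the hair genes and lay at 8.99, 7.54 and 8.64 at week 2 against 4.25, 5.85 and 6.73 at week 4. Its groups did not overlap, and the difference was -2.78 (SE 0.46, limma adjusted p = 0.0801). Krt26, Krt28, Krt71 and Krt72, also keratins of the sheath, were separated in the same way, with differences of -3.65, -3.07, -3.15 and -1.45. Their adjusted p values with limma were between 0.144 and 0.183.

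**Figure D1:**
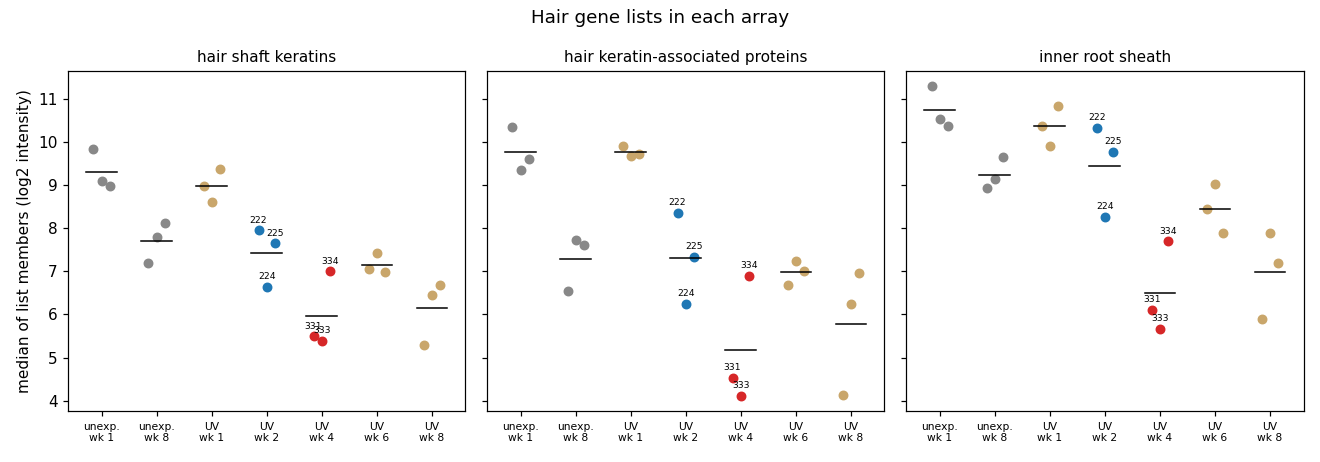
Median log2 intensity over the members of 3 hair gene lists (y axis) in each of the 21 arrays, by group (x axis), with the group mean as a bar and the array numbers given for UV weeks 2 and 4. Arrays 331 and 333 lie lowest of the 6 in all 3 panels, while array 334 lies at 6.996, 6.89 and 7.70.

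The shaft genes had the same arrangement of arrays. Krt33a, a keratin of the hair cortex and the shaft keratin of highest mean, lay at 10.62, 8.03 and 9.95 at week 2 and at 3.92, 2.96 and 8.34 at week 4. Array 334 was above the lowest week 2 array, 224, so the groups overlapped, and the difference of -4.46 had an SE of 1.06 (limma adjusted p = 0.262). The 20th percentile of the arrays was between 3.36 and 3.49, so that Krt33a stood near the lowest values of the array in 331 and 333. Krt31, also a cortex keratin, lay at 9.22, 7.40 and 8.47 against 5.59, 5.40 and 7.41. Krt34 and Krt35 had differences of -3.15 and -2.15. The 12 shaft keratins had a median of -1.18, all 12 were below 0, 9 had an unadjusted p under 0.05, and 3 had groups that did not overlap. Over all genes 48.1% were below 0, 3.53% were lower by that p and 9.68% did not overlap on the lower side.

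Keratin-associated proteins fill the space between the keratin filaments of the shaft. Their 38 measured genes had a median difference of -1.91, with 28 at least 2-fold lower, 23 at an unadjusted p under 0.05 and 4 that did not overlap on the lower side. Over all genes 0.615% were 2-fold lower, 3.53% were lower by that p and 9.68% did not overlap on the lower side. The count without overlap was thus near the share of all genes. Krtap8-1, of highest mean, lay at 12.14, 10.11 and 11.43 at week 2 and at 6.40, 4.04 and 10.46 at week 4. Krtap22-2 lay at 11.47, 9.13 and 10.71 and then at 5.08, 4.41 and 9.97. In both, array 334 lay above array 224. Krtap11-1 was separated, at 9.06, 7.23 and 8.69 against 3.96, 3.74 and 6.93 (difference -3.45, SE 0.68, limma adjusted p = 0.183). Probe sets of this family can share sequence between near-identical genes, so single members are uncertain.

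Genes that direct the follicle were mixed. The 32 measured regulators had a median of -0.20. Of these, 11 had an unadjusted p under 0.05, 10 of them lower, where 3.53% of all genes were lower. Those furthest down are expressed in the differentiating hair itself. Prr9, a proline-rich protein of the shaft, lay at 11.73, 9.98 and 11.58 against 6.66, 6.95 and 9.80. S100a3, a calcium-binding protein of the hair cuticle, and Padi3, the enzyme that citrullinates trichohyalin and S100a3, had differences of -2.46 and -2.30, and neither overlapped. Lhx2, a transcription factor of the follicle bud and stem cells, lay at 5.95, 5.38 and 5.68 against 4.30, 4.55 and 5.10. Fgf5, a signal that ends hair growth, had a difference of -1.19 and Hoxc13, a transcription factor of the shaft, one of -0.47. Vdr, the vitamin D receptor, lay between 10.12 and 10.40 on all 6 arrays (difference -0.16). Gprc5d, an orphan receptor of hard keratinizing tissue, had a difference of -1.35, and Krt75, a companion layer keratin, one of -1.70, again without overlap.

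Across the 91 genes of these 4 hair lists, array 334 was the highest of week 4 for 71 and array 224 the lowest of week 2 for 72. Arrays 331 and 333 both lay below all 3 week 2 arrays for 63 of the 91 genes, which was true of 15.2% of all genes. With array 334 included, 23 of the 91 did not overlap on the lower side, beside 9.68% of all genes. Fitted without array 334, 32 probe sets were called (0.0789%), all lower, for 29 named genes of which 23 were in the hair lists. Krt33a then had a difference of -6.09 (limma adjusted p = 0.00575), Krt25 one of -6.03 (limma adjusted p = 0.02) and Krt73 one of -3.34 (limma adjusted p = 0.00502). Of the genes named above, Krt26, Krt28, Krt34, Krt71, Tchh, Prr9, S100a3, Padi3, Krtap8-1, Krtap11-1 and Krtap22-2 were also called without array 334. Without array 224 the calls were 9, all lower, with Krt28 and Krt73 among them. With all arrays and the beta-actin ratio as a covariate, Krt26, Krt28 and Krt73 passed. Leaving out 331 or 333 gave 0 calls, and the median of the inner root sheath genes was then -2.79 and -2.72, beside -4.10 without 334. The median of the keratin-associated proteins ran from -1.46 without array 222 to -2.87 without 334.

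Set beside unexposed skin, the list medians at week 2 lay closer to it than those at week 4. Against the mean of both unexposed groups, the median of the inner root sheath genes was -0.65 at week 2 and -3.66 at week 4, that of the keratin-associated proteins -1.12 and -3.34, and that of the shaft keratins -0.83 and -2.23. These differences share the control arrays. Against unexposed skin 430 probe sets were lower (1.06%) and 193 higher (0.476%) at week 4 by adjusted p alone, and 32 lower (0.0789%) and 35 higher (0.0863%) at week 2. Krt73 at week 4 was lower than unexposed skin (difference -3.07, limma adjusted p = 0.000965), whereas at week 2 it lay at -0.29 (adjusted p = 0.957). Krt33a and Krt25 were also lower at week 4, with differences of -5.61 and -5.19 (limma adjusted p = 0.00392 and 0.0104), and stood at -1.15 and -0.79 at week 2. Unexposed skin itself differed between weeks 1 and 8 in these lists, with medians of -1.30, -1.75 and -1.61 from week 1 to week 8. At week 6 the medians per array were again above those of arrays 331 and 333, at 7.88 to 9.03 for the inner root sheath. At week 8, array 551 lay as low as those arrays for this list, at 5.89 beside 6.11 for 331 and 5.67 for 333. The other week 8 arrays, 552 and 555, lay at 7.89 and 7.19. The difference between the week 2 to 4 step and the change in unexposed skin passed the limma test for 0 probe sets, with 896 probe sets higher (2.21%) and 829 lower (2.04%) below an unadjusted p of 0.05. Against the step from UV week 6 to 8, where the list medians were -1.56, -0.90 and -0.96, 1 of 40540 probe sets passed (0.00247%), and it was not of a hair gene.

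**Figure D2:**
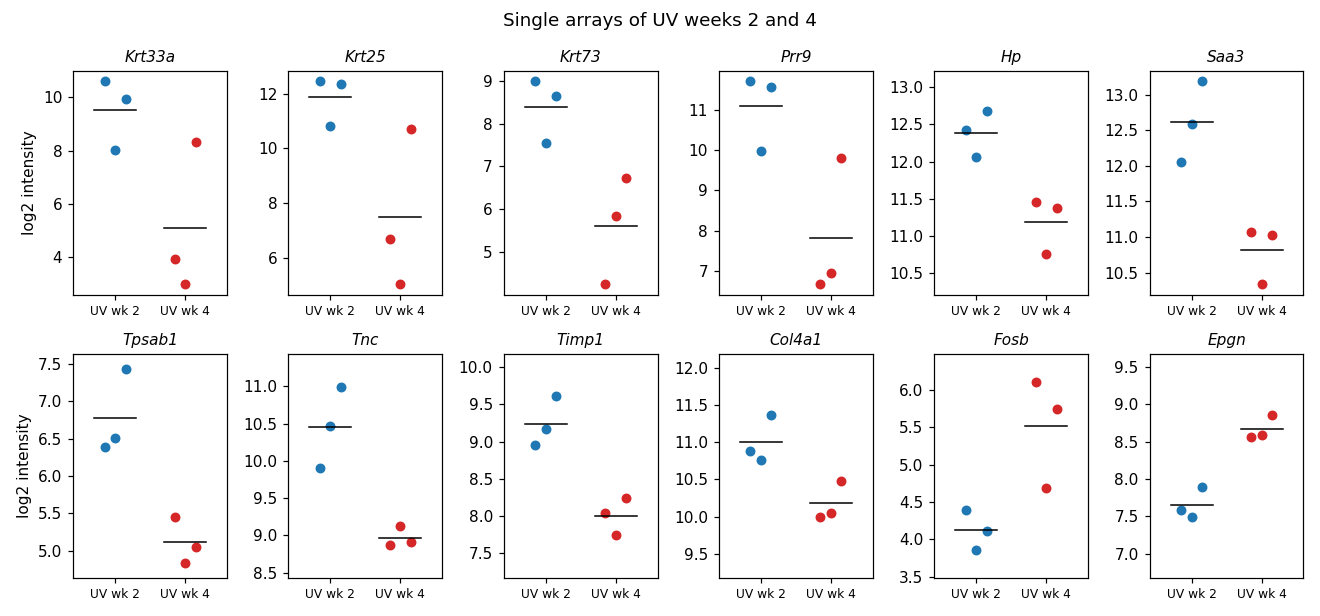
Log2 intensity (y axis) of 12 genes in the 3 arrays of UV week 2 (blue) and the 3 arrays of UV week 4 (red), with the group mean as a bar. The panels have scales of their own of at least 3 log2 units. Krt33a overlaps between the weeks, while the other 11 genes do not.

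Acute phase and antimicrobial genes lay lower at week 4. The 20 measured genes had a median of -0.50, with 8 lower and 0 higher below an unadjusted p of 0.05, and 7 did not overlap on the lower side. Over all genes 3.53% were lower by that p and 9.68% did not overlap on the lower side. Hp, which encodes the haemoglobin-binding protein haptoglobin, lay at 12.42, 12.06 and 12.68 at week 2 and at 11.45, 10.76 and 11.38 at week 4 (difference -1.19, SE 0.19, limma adjusted p = 0.0801). All 3 week 4 arrays lay below, and array 334 did not stand apart as it did for hair. Saa3, a serum amyloid A made locally in inflamed tissue, lay at 12.06, 12.59 and 13.19 against 11.07, 10.34 and 11.03 (difference -1.80, SE 0.41, limma adjusted p = 0.26). Lcn2, lipocalin 2, which binds bacterial iron carriers, and Lbp, the lipopolysaccharide-binding protein, had differences of -1.72 and -1.21. Saa1 and Chil3, a chitinase-like protein of myeloid cells, had differences of -1.03 and -1.47. Defb6, a beta-defensin and the list's gene of highest mean, lay at 13.55, 13.44 and 13.12 and then at 13.68, 13.70 and 13.64. Without array 225, which was highest for Saa3, Lcn2 and Lbp, the list's median was -0.20, and without 333 it was -0.33.

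Saa3 lay 1.66 above the mean of unexposed skin at week 2 and at -0.14 from it at week 4, and its means at weeks 6 and 8 were 12.35 and 12.64. Hp had means of 11.03 and 11.06 at weeks 6 and 8. Rarres2, which encodes the chemoattractant chemerin, had one of the lowest adjusted p values and lay at 11.94, 11.85 and 12.31 against 11.11, 10.80 and 10.96 (difference -1.08, SE 0.17, limma adjusted p = 0.0801). Hp and Rarres2 were called when 1 probe set per gene was tested, with either RNA ratio as a covariate, and without array 224 or 334.

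The interleukin-1 and neutrophil list had a median of -0.25 over 22 genes, which was -0.06 without array 225 and -0.08 without 333. On the lower side 5 had an unadjusted p under 0.05, beside 3.53% of all genes, and 0 on the higher. Cxcl5, a chemokine for neutrophils, lay at 7.12, 7.003 and 8.23 against 6.32, 5.06 and 6.03. Il1b, the inflammatory cytokine, and Il33, an alarmin of keratinocytes and stroma, had differences of -0.88 and -0.99, both without overlap. Il18 and Il1f5, the members of highest mean, had differences of 0.15 and 0.23.

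Of the 16 mast cell genes, 4 did not overlap on the lower side, which was true of 9.68% of all genes. Tpsab1, a mast cell tryptase, lay at 6.39, 6.51 and 7.44 at week 2 and at 5.45, 4.83 and 5.05 at week 4 (difference -1.67, SE 0.27, limma adjusted p = 0.0801). The groups did not overlap. At week 2 it lay 1.77 above the mean of unexposed skin (limma adjusted p = 0.00158), and at week 4 it lay 0.10 above it. Tpsb2, the other tryptase, lay at 7.41, 7.41 and 7.88 against 6.69, 6.16 and 7.25. Cma1, mast cell chymase, and Cpa3, the mast cell carboxypeptidase, are the members of highest mean, and their differences of -0.48 and -0.43 came with overlap. Hdc, the enzyme that makes histamine, had a difference of -0.78. Over the list the median was -0.20, and it ran from -0.15 without array 222 to -0.38 without 331. Below an unadjusted p of 0.05 were 4 genes on the lower side and 0 on the higher, beside 3.53% and 2.99% of all genes. Tpsab1 was called with 1 probe set per gene, with either RNA ratio as a covariate and without array 224.

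Matrix genes lay lower by smaller amounts but across many members. The 41 proteoglycans and glycoproteins had a median of -0.55, with an unadjusted p under 0.05 for 20 on the lower side and 1 on the higher, and 24 of the 41 did not overlap on the lower side. The shares over all genes were 3.53%, 2.99% and 9.68%. Tnc, which encodes tenascin-C, a glycoprotein of healing and remodelled dermis, lay at 9.91, 10.46 and 10.99 at week 2 and at 8.87, 9.12 and 8.92 at week 4 (difference -1.49, SE 0.35, limma adjusted p = 0.262). Fn1, fibronectin, lay at 12.93, 12.52 and 13.32 against 12.33, 11.68 and 12.34. Mfap5 and Fbln5, both parts of elastic fibres, had differences of -1.11 and -0.70. Prelp and Bgn, small leucine-rich proteoglycans, had -0.81 and -0.66. Postn, periostin, and Sparc, a collagen-binding glycoprotein, both had -0.71. Each of these 8 was separated between the weeks. Probe sets of a gene differed for some: 2 others of Sparc gave -1.39 and 0.26, and a second of Tnc gave -0.52. Tgfbi, the other member of highest mean beside Sparc, gave 0.01 at its brightest probe set and -0.66, -0.30 and 0.001 at the others.

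Among 41 collagen chains the median was -0.18, with an unadjusted p under 0.05 for 12 on the lower side and 3 on the higher, beside 3.53% and 2.99% of all genes. Col14a1, a collagen that sits on the surface of fibrils, lay at 10.32, 9.49 and 10.31 against 9.24, 8.84 and 9.02 (difference -1.005, SE 0.20, limma adjusted p = 0.183). A second probe set gave -1.01 (adjusted p = 0.0801), while a dim one gave 0.06. The first and the second were called without array 224, and the second also without 334. The basement membrane chains Col4a1 and Col4a2 lay at 10.88, 10.76 and 11.36 against 10, 10.05 and 10.48, and at 10.45, 10.19 and 10.86 against 9.46, 9.57 and 9.87. The fibrillar chains of highest mean had smaller differences at their brightest probe sets, -0.27 for Col3a1 and -0.49 for Col1a2. A second probe set of Col3a1 gave -0.68. Of the others of Col1a2, a bright one gave -0.69 and a dim one -0.22. Of the 23 genes of collagen processing and crosslinking, 15 did not overlap on the lower side and 6 had an unadjusted p under 0.05, beside 9.68% and 3.53% of all genes (median -0.44). The members of highest mean, Pcolce and Ppib, an enhancer of procollagen cleavage and a cyclophilin of the endoplasmic reticulum, had -0.40 and -0.11. The TGF-beta pathway, which drives matrix production, had a median of -0.26 over 16 genes, with -0.32 for its receptor Tgfbr2 and -0.53 for Fstl1.

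Timp1, an inhibitor of metalloproteinases, lay at 8.95, 9.16 and 9.60 at week 2 and at 8.04, 7.74 and 8.24 at week 4 (difference -1.23, SE 0.26, limma adjusted p = 0.232). At week 2 it stood 0.97 above the mean of unexposed skin and at week 4 at -0.26 from it. Mmp2, gelatinase A, and Timp2, its inhibitor, had differences of -0.74 and -0.41. The 21 metalloproteinases and inhibitors together had a median of -0.25, which ran from -0.38 without array 224 to -0.16 without 333. Of the 21, 4 were lower at an unadjusted p under 0.05, beside 3.53% of all genes. Sfrp4, a secreted Wnt antagonist of the dermis, lay at 9.37, 9.12 and 9.78 against 8.25, 8.73 and 8.09 (difference -1.06, SE 0.20, limma adjusted p = 0.144). It stood at -0.06 from unexposed skin at week 2 and was lower at week 4 (difference -1.13, limma adjusted p = 0.00252). Vessel genes were placed alike: 13 endothelial genes had a median of -0.47, with 5 lower at an unadjusted p under 0.05, beside 3.53% of all genes. Their members Pecam1 and Cdh5, junction proteins of endothelium, had -0.92 and -0.54, and the members of highest mean, Tek and Esam, -0.62 and -0.18. Pecam1 was dim, with a mean of 4.58 over all arrays. Acta2, the smooth muscle actin, and Synpo2, a protein of its filaments, had differences of -0.42 and -0.37, and the 12 smooth muscle genes had a median of -0.39. The 14 identity genes of keratinocytes and fibroblasts, read as 1 list, had a median of -0.26, with 9 below 0 and a range from -0.99 to 0.11. The members of highest mean, the fibroblast gene Col3a1 and the keratinocyte gene Krt10, had -0.27 and 0.11. The part of any shift in tissue composition in the matrix values was not tested.

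**Figure D3:**
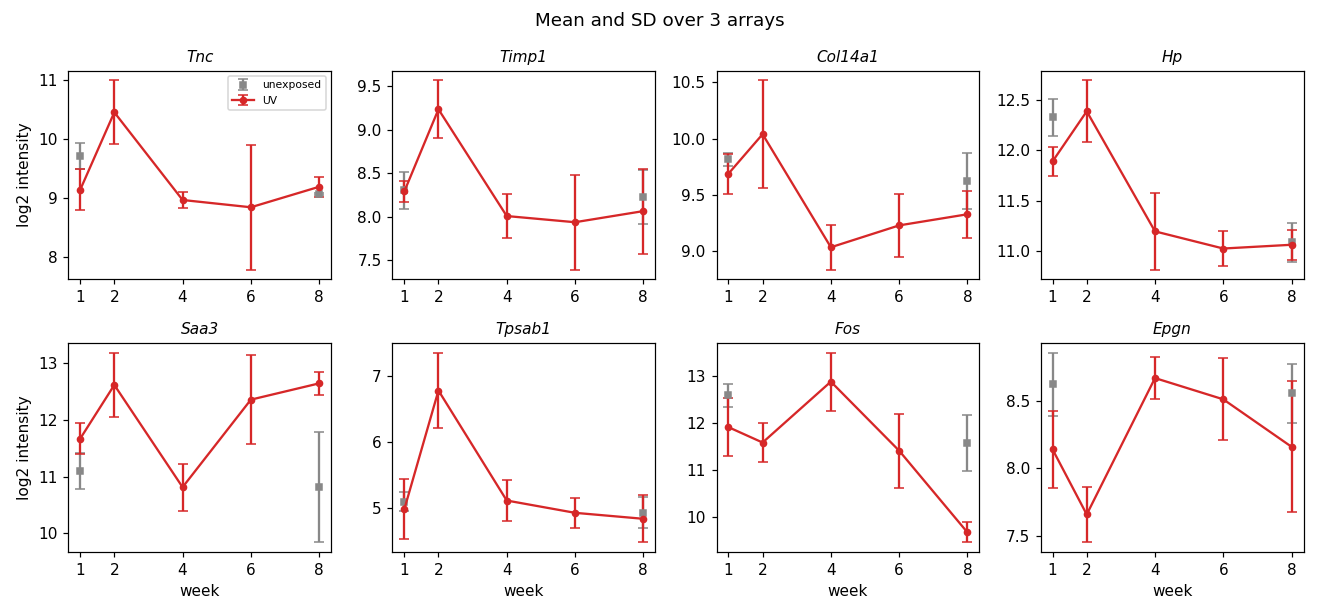
Mean and SD over 3 arrays of the log2 intensity (y axis) of 8 genes by week (x axis) in UV-exposed skin (red line) and unexposed skin (grey squares), each gene on a scale of its own. Tnc, Timp1, Saa3 and Tpsab1 lie above both unexposed groups at week 2, and Fos and Epgn are higher at week 4 than at week 2.

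Fewer genes lay 2-fold higher at week 4 than 2-fold lower, 14 against 107, while 10.2% of all genes were separated on the higher side and 9.68% on the lower. Immediate early genes, the transcription factors and phosphatases that cells switch on within minutes of a stimulus, had a median of 0.20 over 25 genes. Of these, 6 were higher and 0 lower at an unadjusted p under 0.05, where 2.99% of all genes were higher, and 7 did not overlap on the higher side. When each array was left out, the median ran from 0.18 without array 334 to 0.35 without 333. Fos lay at 11.94, 11.14 and 11.68 at week 2 and at 13.37, 12.19 and 13.11 at week 4 (difference 1.30, SE 0.39, limma adjusted p = 0.492). Fosb, its relative, lay at 4.39, 3.85 and 4.11 against 6.11, 4.68 and 5.75. Egr2, a zinc-finger factor, lay at 10.86, 10.79 and 10.83 against 11.58, 11.38 and 11.65, and Dusp1, a phosphatase that dampens MAP kinases, at 11.70, 11.61 and 11.99 against 12.73, 12.21 and 12.67. All 4 were separated, with array 333 the lowest of week 4. In unexposed skin the Fos means were 12.60 and 11.58 at weeks 1 and 8, and the Dusp1 means 12.43 and 12.37.

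Epgn, the EGF receptor ligand epigen, lay at 7.58, 7.50 and 7.89 against 8.56, 8.60 and 8.85 (difference 1.01, SE 0.22, limma adjusted p = 0.232). Its unexposed means were 8.63 and 8.56, from which UV week 2 stood at -0.93 and UV week 4 at 0.08. Egfr, the receptor itself, and Ereg, epiregulin, had -0.01 and 0.15, and the 11 genes of this family had a median of 0.07, which was -0.03 without array 222. The T cell and Cxcr3 chemokine genes had a median of 0.23 over 17 genes. Of these, 5 were higher and 0 lower at an unadjusted p under 0.05, beside 2.99% and 3.53% of all genes. Cxcl9, a chemokine induced by interferon-gamma, lay at 7.59, 7.51 and 7.24 against 8.24, 8.68 and 8.39. At week 4 it was above unexposed skin (difference 1.76, limma adjusted p = 0.0297), and at week 2 it lay at 0.77. Gzma, a granzyme of cytotoxic lymphocytes, had a difference of 0.64, while Thy1 and Cd3e, the members of highest mean, had -0.45 and 0.18. Cholesterol synthesis had a median of 0.21 over 19 genes, which was 0.02 without array 222, with 9 of the 19 then below 0. Hsd17b7, a sterol dehydrogenase, and Hmgcs1, the synthase at the head of the pathway, had 0.57 and 0.25. Dimmer probe sets gave 0.38, 0.22 and -0.02 for Hsd17b7, and 0.20, 0.19, -0.37 and 0.55 for Hmgcs1. A probe set of Idi1, also of this list, gave 0.88 (SE 0.15, limma adjusted p = 0.112). The list's median read Idi1 at another, brighter probe set. Spink5, the epidermal protease inhibitor LEKTI, lay at 11.61, 11.92 and 11.76 against 12.17, 12.12 and 12.33. In its list of 35 protease inhibitors and kallikreins the median was 0.14, and 0.03 without array 222, and the members of highest mean, the cystatin Cst6 and the stefin Stfa3, had 0.09 and 0.06.

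Resting epidermal keratins and cornified envelope genes had medians near that of all genes, while the wound and companion layer keratins had a lower one. The 9 resting epidermal keratins had a median of 0.10, with 0 members at an unadjusted p under 0.05. The 36 cornified envelope genes had one of 0.14, with 1 higher by that p, beside 2.99% of all genes. Without array 222 these medians were 0.04 and -0.07, with 20 of the 36 cornified envelope genes below 0. Krt1 and Krt10, the pair of suprabasal keratins, had differences of 0.08 and 0.11. Lor, loricrin, and Lce1i, a late cornified envelope protein, had 0.02 and 0.14. Krt6b, a keratin of wounded and thickened epidermis, lay at 11.51, 13.57 and 13.40 at week 2 and at 12.26, 11.39 and 12.28 at week 4. Array 222 stood apart from the other week 2 arrays, and the difference of -0.85 had an SE of 0.52. Krt79, of the upper follicle and sebaceous duct, had 0.09, and the 6 wound and companion layer keratins had a median of -0.79, which was -1.26 without array 222. Cell cycle genes had a median of -0.24 over 33 genes (-0.16 without array 331), with an unadjusted p under 0.05 for 4 on the lower side and 1 on the higher, beside 3.53% and 2.99% of all genes. Of the 33, 11 did not overlap on the lower side and 1 on the higher, beside 9.68% and 10.2% of all genes. Pcna, the replication clamp, and Rrm2, a subunit of ribonucleotide reductase, had -0.32 and -0.07, and the other probe sets of Rrm2 gave -0.56 and -0.40. Interferon-stimulated genes had a median of -0.20 over 30 genes (-0.11 without array 334). Their members of highest mean, Ifi27l2a and Ifi35, had -0.29 (SE 1.24) and 0.18 (SE 0.18), and the other probe sets of Ifi35 gave -0.38 and -0.04. Pigment cell genes, in these albino mice, had a median of 0.38 over 10 genes, which was 0.12 without array 333 and 0.25 without array 224. Tyrp1, an enzyme of melanosomes, lay at 8.11, 8.06 and 7.95 against 8.74, 9.78 and 8.66, and Mitf, the pigment cell transcription factor, had -0.17. Over the 43 lists, 0 of 920 measured genes passed an adjusted p of 0.05 with limma in either direction.

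**Figure D4:**
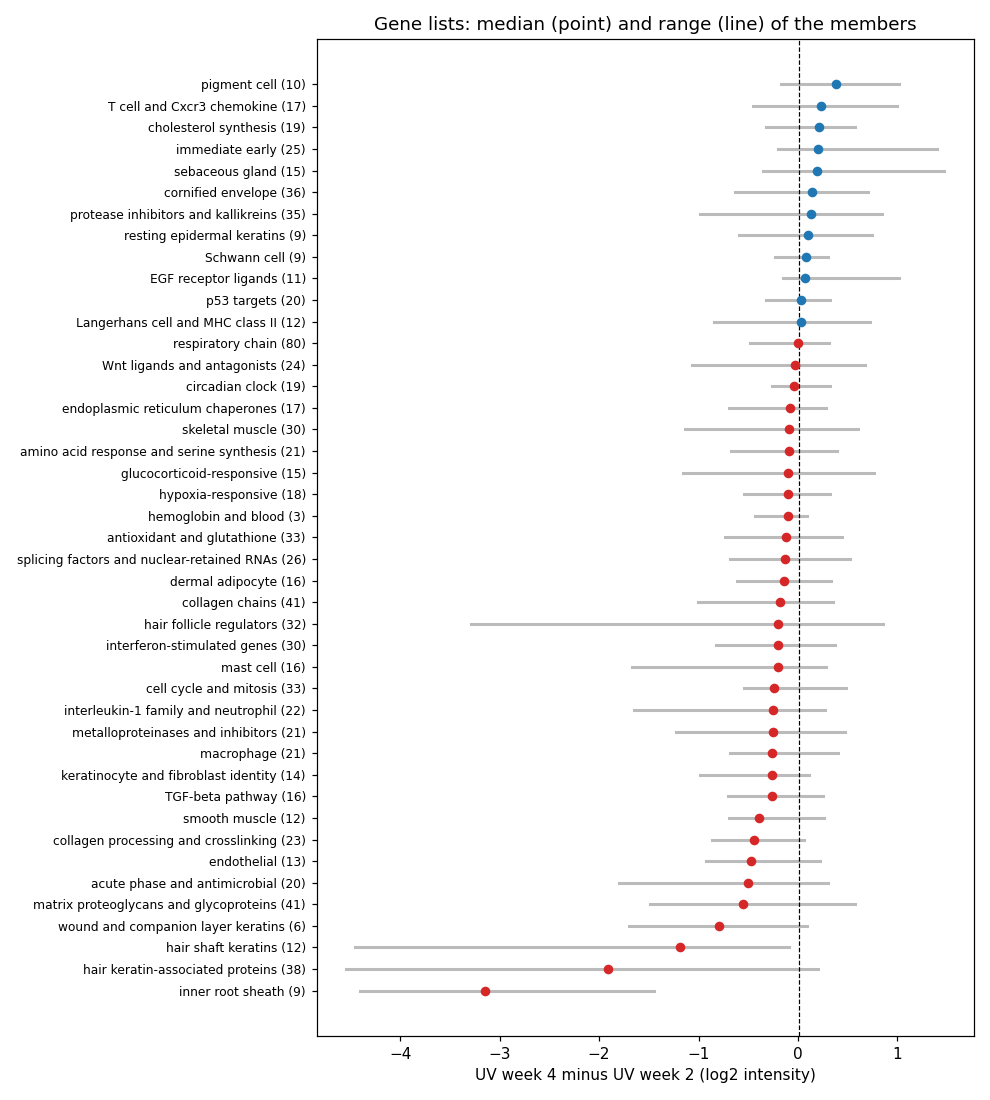
UV week 4 minus UV week 2 on the log2 scale (x axis) for 43 gene lists (y axis, with the number of genes measured), as the median of the members (point, red below 0 and blue above) and their range (line). The dashed line is the median of all genes, 0.01, and the 3 lists furthest left are inner root sheath (-3.15), keratin-associated proteins (-1.91) and hair shaft keratins (-1.18).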

How the data were processed

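RNA of dorsal skin was measured on Affymetrix mouse genome arrays. The deposited values are probe set intensities on a linear scale, background corrected, normalized across arrays and summarized by the authors. The Methods name Expression Console 1.4 with a Microarray Suite 5 preprocessor and the submitters' processing notes name RMA. The values, all above 4, have no entries near 0, and which of the methods made them is not settled. Array medians were 30.4 to 31.9 in the 6 arrays, and 3 arrays a group limit the precision. The Methods count 6 groups and the labels 7; the labels were used. The dose of each week follows the labels' protocol.

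Intensities were log2 transformed. Probe sets reaching the 20th percentile of their array in at least 1 array were kept (40540 of 45101, without 64 controls). One limma fit (version 3.58.1, R 4.3.3) gave each of 7 groups a mean, with Benjamini-Hochberg adjustment over all probe sets tested. Each group's arrays are from different animals by the design text. Probe sets were named by GEO's platform annotation: 34945 had 1 symbol, 932 several and 9160 none, and only the first were named. Of these, 34741 matched RefSeq. The fit was tested on simulated data. Alternatives were other filters, quantile normalization, 1 probe set per gene, the compared groups alone, a variance trend, RNA ratio covariates and each of the 6 arrays left out.

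The weeks compared and the 43 gene lists were chosen with earlier results of these data known. Named genes were to be the 12 most changed called genes in each direction, of which there were none, and, for a list with fewer than 2 members past the test, its 2 members of highest mean, which are given for the lists described. For the Wnt ligands and antagonists these 2 members are not given. The remaining genes were chosen after their values were seen.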

Additional observations from a re-analysis of the deposited data

Results flagged for a closer look

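The difference between the step from UV week 2 to 4 and the step from UV week 6 to 8 passed the limma test for 1 probe set, that of Umodl1, which was chosen for mention after its value was seen. Umodl1 lay at 5.02, 5.28 and 5.23 at UV week 2 and at 4.58, 4.08 and 4.41 at UV week 4, and its means were 4.36 at week 6 and 5.46 at week 8. The first step minus the second was -1.93 (SE 0.25, limma adjusted p = 0.0111, and 0.00546 to 0.0452 under the alternatives that kept the call). The call was lost in a fit to those 4 groups alone and without array 224, 225 or 333. Its own step from week 2 to 4, -0.82, did not pass (limma adjusted p = 0.232).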

How the results depend on the processing

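For week 4 against week 2, 0 probe sets were called higher under every alternative with a test. The calls lower, 0 in the reported fit, were 3 with 1 probe set per gene, 6 with the beta-actin ratio as a covariate, 3 with the Gapdh ratio, and between 0 and 32 when each array was left out (1 without array 222, 9 without 224, 32 without 334). They were 0 with no filter, a stricter filter, quantile normalization, the 2 groups alone or a variance trend. Members of the gene lists called lower were 5 with the beta-actin ratio, 2 with the Gapdh ratio and between 0 and 24 when each array was left out (5 without 224, 24 without 334). By size alone, with no test, 21 probe sets were 2-fold higher and 178 lower. Set against the change in unexposed skin, leaving out arrays gave 0 to 1 calls lower (1 without array 224), and by size alone 65 were higher and 293 lower. Set against the step from week 6 to 8, the 1 call lower became 0 in those groups alone, 2 with the beta-actin ratio and 0 to 2 when each array was left out (2 without array 222, 0 without 224, 225 or 333), and by size alone 66 were higher and 269 lower. The cause was not tested.

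For 101 genes and 14 refitted alternatives, 1358 of 1414 values kept their direction and their side of the threshold, 35 passed it and 21 changed sign. The sign changes were in genes whose differences in the reported fit lay between -0.07 (Rrm2) and 0.23 (Il1f5). With quantile normalization Rrm2 lay at 0.0041 and Egfr at 0.061, and with the beta-actin ratio Tgfbi lay at -0.0019. When each array was left out, Krt1 ran from -0.075 to 0.19, Krt79 from -0.067 to 0.29, Lor from -0.073 to 0.11, Il1f5 from -0.043 to 0.46, Cst6 from -0.025 to 0.17 and Tgfbi from -0.0497 to 0.094. Egfr ran from -0.093 to 0.101, Ereg from -0.14 to 0.33, Myh1 from -0.093 to 0.34 and Tnnc2 from -0.054 to 0.18. Array 222 gave the lowest value of the first 5 and of Ereg, and the highest of Egfr. No paired analysis was possible because the array numbers in the titles are not shared between groups. Intensities near the array's lowest values, as for Krt33a on arrays 331 and 333, carry little information on how much lower a gene lay.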
